A study of Saccharomyces cerevisiae with 4 samples.

Results

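The genes described here encode the aminoacyl-tRNA synthetases of Saccharomyces cerevisiae, together with ARC1, the tRNA-binding partner of a pair of them. They were taken from a fixed list of 34 names, all of which were present among the 6782 gene rows of the deposited expression table. The list holds 20 cytosolic genes (19 synthetase genes and ARC1) and 14 mitochondrial synthetase genes. The induced cultures were W303 yeast carrying a single copy of 6xIAPP at LEU2 behind an estradiol-inducible promoter, given 100 nM estradiol for 6 h (n = 2). The uninduced cultures were the same strain with the same construct, given DMSO for 6 h (n = 2). IAPP, islet amyloid polypeptide, is a human pancreatic peptide hormone that forms amyloid. All cultures were in log phase, and the design text calls the cultures of an arm biological replicates. No culture with estradiol and without the construct was analysed here, so the inducer and the construct cannot be told apart, and the construct's own transcript was not analysed here.

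Aminoacyl-tRNA synthetases attach each amino acid to its matching tRNA, the step that sets the meaning of the codons. Yeast keeps separate sets of these enzymes for the cytosol and for mitochondria, where a small ribosome translates the few messages of the mitochondrial genome. Both sets are encoded in the nucleus, and for some amino acids a single gene makes both enzymes. The cytosolic genes belong, as background, to the growth-related programme that also holds ribosome biogenesis genes, and several are known targets of Gcn4, the activator of amino acid synthesis genes.

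Induction was accompanied by lower mRNA of nearly the whole cytosolic set. Of the 20 cytosolic genes, 18 fell, 1 rose (CDC60, leucine) and 1 did not pass (GRS2, the minor glycine gene). Among the 14 mitochondrial genes, 11 fell, 2 rose (SLM5 and AIM10) and 1 did not pass (ISM1, isoleucine). A gene was called at an adjusted p under 0.05 in a limma fit over 6037 genes, in which 72.7% of genes were called, 37.0% lower and 35.6% higher. The median log2 fold change (induced minus uninduced, on log2(CPM + 1), where CPM are read counts scaled to library size) was -0.64 for the cytosolic genes and -0.43 for the mitochondrial genes, beside -0.00042 for all genes tested. The changes were moderate in size. The ratio of uninduced to induced means reached 1.5 in 12 cytosolic and 4 mitochondrial genes (18.8% of all genes), and reached 2 in WRS1 alone among the 34 (7.85% of all genes). Tested against a change of 1.2-fold, 15 cytosolic genes were lower and 1 higher, and 8 mitochondrial genes were lower and 1 higher, beside 44.5% of all genes called, 23.2% lower and 21.3% higher. On recovered reads, edgeR called 18 cytosolic genes lower and 2 higher, and 10 mitochondrial genes lower and 2 higher, where it called 73.1% of all genes (36.7% lower, 36.4% higher). DESeq2 called 18 cytosolic genes lower and 1 higher, and 10 mitochondrial genes lower and 2 higher, where it called 63.3% of all genes (32.5% lower, 30.8% higher). With the replicate number as a block, limma called 18 cytosolic genes lower and 2 higher, and 11 mitochondrial genes lower and 2 higher, beside 74.7% of all genes (38.0% lower, 36.8% higher). In the authors' deposited table, 14 cytosolic genes had an adjusted p under 0.05 as lower and 1 as higher, and 8 mitochondrial genes as lower, beside 41.9% of the genes tested, 21.6% lower and 20.3% higher.

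Recovered reads came to 10397606 to 15582338 per library, and each of the 34 genes had between 429 and 13900 reads in every library. The log2 difference within a replicate pair had an SD of 0.11 for the induced and 0.12 for the uninduced libraries, over 5017 genes of at least 20 CPM. CPM are shares of a library, and in bulk RNA fewer cells with a transcript and less of it per cell cannot be told apart. With scaling to total reads in place of the authors' factors, the median of all genes moved to 0.12, and the part of the calls that were higher was 60.0%, beside 49.1% as deposited. The cytosolic median was then -0.51 and the mitochondrial median -0.31.

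Most upstream regions of the cytosolic genes share a run of letters that was not found in those of the mitochondrial synthetase genes. The 300 bases before each start codon were read from the R64 genome and searched on both strands for the letters AAAAATTT, the core of the RRPE element, which is bound by Stb3 and is common upstream of ribosome biogenesis genes. The core was present upstream of 16 of 20 cytosolic genes (80%) and of 0 of 14 mitochondrial genes, against 908 of 6001 nuclear protein-coding genes (15.1%). Other genes described below did not follow this contrast of compartments. The core stood upstream of 3 of 4 genes that amidate or formylate mitochondrial tRNA. Among genes that deliver tRNA to the ribosome, it stood upstream of 4 of 7 cytosolic and 1 of 3 mitochondrial ones. The 4 cytosolic genes with no match were KRS1, ALA1, DPS1 and GRS2. The 16 matches nearest to the start codon, each with 8 bases on either side, are printed to show the shared core (capitals) in its flanks, on the strand that reads AAAAATTT, 5′ to 3′.
WRS1: tgactaaaAAAAATTTttcaacgt
MES1: gaggcagaAAAAATTTctgtacgc
GLN4: tacaaatgAAAAATTTgacatcgc
GRS1: agaagagtAAAAATTTtcaatttt
DED81: caaaagtgAAAAATTTtccatcgt
ILS1: aaaaaaaaAAAAATTTttcgtcat
SES1: aatgacaaAAAAATTTttttttgc
VAS1: tcttctaaAAAAATTTtttcagcg
ARC1: tatgactgAAAAATTTtcttatct
FRS1: aggaaatgAAAAATTTtcaatgta
TYS1: caaagtagAAAAATTTtatgaaaa
THS1: tcctcgaaAAAAATTTtttagcaa
GUS1: gtaaattgAAAAATTTacttcgag
HTS1: acttgataAAAAATTTcaaacaaa
FRS2: aaaaacagAAAAATTTtttttttc
CDC60: ctctggaaAAAAATTTcggtggct
The 23 matches lay between 46 and 239 bases before the start codon, some as overlapping matches on both strands of the same A and T run. Matches were present upstream of members that fell most (WRS1, MES1, GLN4) and also of CDC60, which rose. The median log2 fold change was -0.64 for the 16 cytosolic genes with the core and -0.60 for the 4 without it. Over all tested genes with such a window, 494 of the 889 with the core were called lower (55.6%), against 1684 of the 4814 without it (35%). A match is a description of letters and was not tested as a binding site.

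A Gcn4 motif, TGACTC, occurred upstream of 7 cytosolic genes (KRS1, DED81, ILS1, ALA1, VAS1, ARC1 and THS1; 35%) and of 1 mitochondrial gene (MSW1; 7.14%), against 7.77% of all such windows. Each of those 7 cytosolic genes fell, and their median change was -0.70 on the log2 scale. Of the 13 cytosolic genes without the motif 11 fell, with a median change of -0.54, and over all tested genes 42.2% of those with TGACTC were lower, against 37.8% of those without it. The core of the PAC element, GATGAG, which is bound by the repressors Dot6 and Tod6, stood upstream of 3 cytosolic genes (15%) and 1 mitochondrial gene (7.14%), against 19.1% of all windows. Those 3 cytosolic genes fell (median -0.49), as did 15 of the 17 without the PAC core (median -0.64). Over all tested genes, 564 of the 1102 with the PAC core were called lower (51.2%), against 1614 of the 4601 without it (35.1%). GATGAG and the reverse complement of TGACTC can share the letters GAG. To show a whole window for the strongest fall and rise of each set, the 300 bases of WRS1, CDC60, MSD1 and SLM5 follow, 5′ to 3′ on the strand of the gene and ending at the base before the start codon, with motif matches in capitals. They come from the RefSeq R64 assembly of the reference strain, not of W303.
WRS1 (chrXV:137826-138125, minus strand): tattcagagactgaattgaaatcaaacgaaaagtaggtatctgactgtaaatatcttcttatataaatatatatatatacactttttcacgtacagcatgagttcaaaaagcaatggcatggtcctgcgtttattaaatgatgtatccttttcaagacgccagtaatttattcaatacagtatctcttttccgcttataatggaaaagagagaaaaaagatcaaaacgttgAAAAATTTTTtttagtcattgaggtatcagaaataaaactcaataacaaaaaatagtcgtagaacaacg
CDC60 (chrXVI:246690-246989, plus strand): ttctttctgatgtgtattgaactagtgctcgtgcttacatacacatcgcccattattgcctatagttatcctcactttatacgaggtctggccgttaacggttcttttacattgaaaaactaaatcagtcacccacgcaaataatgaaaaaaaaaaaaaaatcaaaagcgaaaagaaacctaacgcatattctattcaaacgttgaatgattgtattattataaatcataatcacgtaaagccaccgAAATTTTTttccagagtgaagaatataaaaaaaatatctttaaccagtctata
MSD1 (chrXVI:355400-355699, plus strand): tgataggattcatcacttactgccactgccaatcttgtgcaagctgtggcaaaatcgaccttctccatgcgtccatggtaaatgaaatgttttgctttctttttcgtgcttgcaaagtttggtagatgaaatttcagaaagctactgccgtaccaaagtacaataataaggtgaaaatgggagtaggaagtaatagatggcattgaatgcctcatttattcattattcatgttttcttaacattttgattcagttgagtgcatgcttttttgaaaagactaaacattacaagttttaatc
SLM5 (chrIII:162223-162522, minus strand): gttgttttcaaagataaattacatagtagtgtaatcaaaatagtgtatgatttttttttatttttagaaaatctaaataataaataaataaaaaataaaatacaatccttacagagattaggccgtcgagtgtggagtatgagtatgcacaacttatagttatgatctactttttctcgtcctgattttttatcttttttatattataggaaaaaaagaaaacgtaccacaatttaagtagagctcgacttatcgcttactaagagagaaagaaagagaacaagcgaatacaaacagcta
The window of WRS1 holds overlapping matches to the RRPE core on both strands, and that of CDC60 holds 1 match on the strand opposite to the gene. The windows of MSD1 and SLM5 hold none of the 3 motifs.

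**Figure D1:**
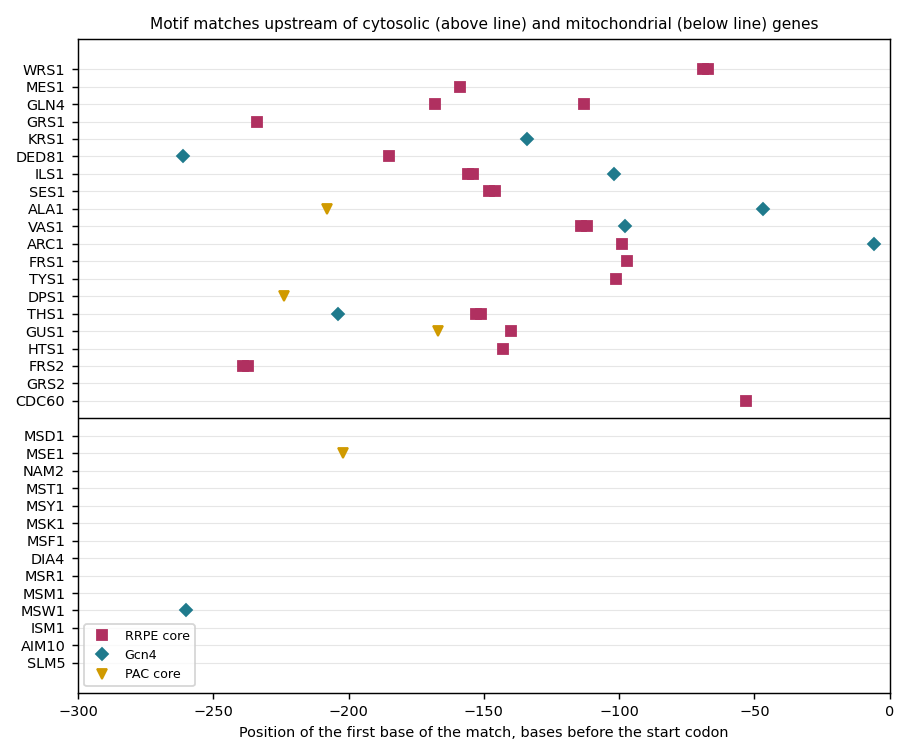
Positions of motif matches in the 300 bases before the start codon, with genes in rows (cytosolic above the line, mitochondrial below it, each from the strongest fall to the strongest rise) and the first base of each match on the x axis. Squares (RRPE core) stand in 16 of 20 cytosolic rows and in 0 of 14 mitochondrial rows.

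Among the cytosolic genes, the tryptophan enzyme gene WRS1 (YOL097C, chromosome XV, 136527 to 137825) fell most. It had 90.5 and 95.0 CPM in the induced libraries, against 179.6 and 202 CPM in the uninduced libraries. Its log2 fold change was -1.03 ± 0.06 (SE; adjusted p = 1.36e-08), and 6.53% of all genes tested had a lower value. MES1 (YGR264C, chromosome VII, 1019598 to 1021853), the methionine enzyme gene, followed with 108 and 111 CPM induced and 204 and 228 CPM uninduced (-0.97 ± 0.06, adjusted p = 1.48e-08). The glutamine enzyme gene GLN4 (YOR168W, chromosome XV, 649303 to 651732) had 112 and 113 CPM induced and 208 and 215 CPM uninduced (-0.90 ± 0.05, adjusted p = 6.2e-09). In these 3 genes both induced libraries lay below both uninduced libraries by a wide margin. The same separation without overlap held for all 18 cytosolic genes that fell, and 43.1% of all genes tested separated downward in this way. CDC60 and GRS2 separated upward, as did 42.9% of all genes tested.

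Further cytosolic genes with falls above the list's median in size were KRS1 (lysine), DED81 (asparagine), ILS1 (isoleucine) and SES1 (serine), and also GRS1, ALA1 and VAS1, described below. KRS1 had 530.3 and 510.5 CPM induced and 916 and 960.0 CPM uninduced (-0.85 ± 0.05). DED81 averaged 447 ± 7.49 CPM induced and 796 ± 27.9 CPM uninduced (SD, n = 2 each; -0.83 ± 0.05). ILS1 had a log2 fold change of -0.82 and SES1 of -0.78. Smaller falls were seen for TYS1 (tyrosine, -0.54), DPS1 (aspartate, -0.49) and THS1 (threonine, -0.41). THS1 averaged 421 ± 5.82 CPM induced and 559 ± 26.2 CPM uninduced. The adjusted p of THS1 was 0.136 in the authors' deposited table. Summed over the 20 genes, the cytosolic set held 6211 and 6134 CPM in the induced libraries, against 9064 and 9444 CPM in the uninduced libraries. As a share of recovered reads this was 0.654% and 0.648% induced, against 0.883% and 0.906% uninduced.

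**Figure D2:**
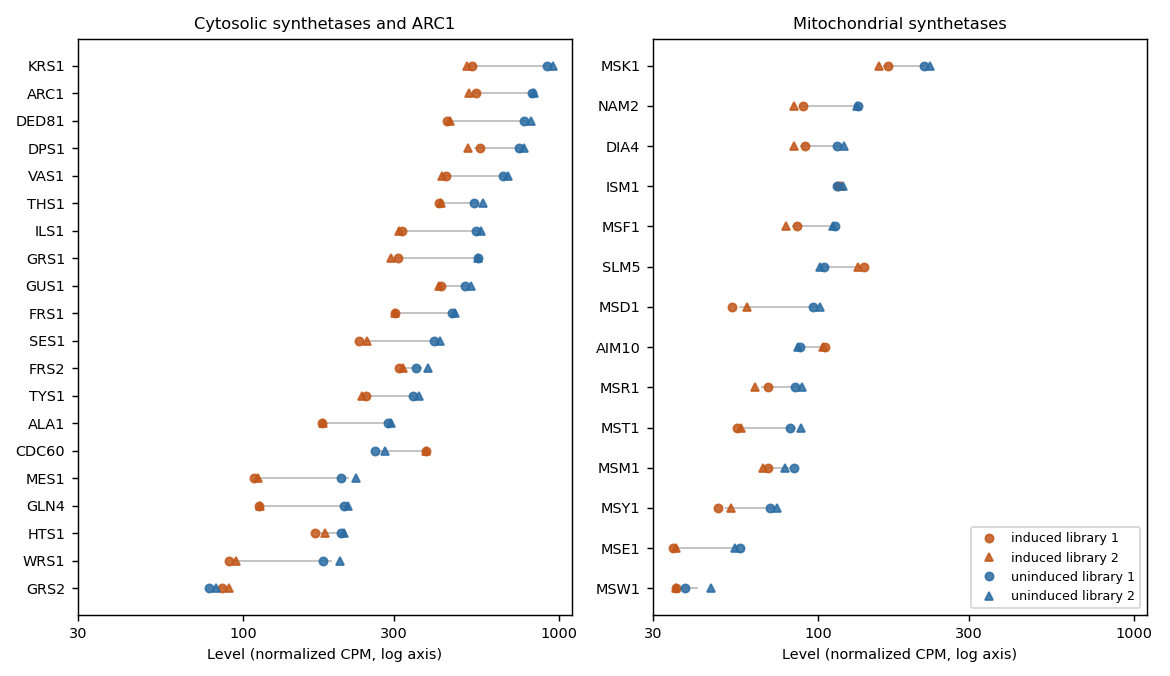
Levels of the 34 genes in each library (normalized CPM, log axis), cytosolic genes at left and mitochondrial genes at right, ordered by their uninduced mean; circles are library 1, triangles library 2, and the grey line joins the group means. The induced points lie left of the uninduced points in 18 of 20 cytosolic and 11 of 14 mitochondrial rows.

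CDC60 (YPL160W, chromosome XVI, 246990 to 250262), the cytosolic leucine enzyme gene, moved against its set, and its upstream window, printed above, holds the RRPE core. It had 379.9 and 379 CPM in the induced libraries, against 261 and 281 CPM in the uninduced libraries. Its log2 fold change was 0.48 ± 0.05 (adjusted p = 2.4e-06), and it kept its direction and call in the 15 alternatives run, with values of 0.43 to 0.63. The authors' deposited table also gave it as higher (0.48, adjusted p = 0.0433). The mitochondrial leucine enzyme gene, NAM2 (YLR382C, chromosome XII, 882067 to 884751), fell. Its product also helps to splice mitochondrial introns, and it had 89.9 and 84.1 CPM induced and 134 and 133 CPM uninduced (-0.61 ± 0.06, adjusted p = 7.67e-07). Per kilobase of coding sequence, CDC60 stood at 3.47 and 3.70 times NAM2 in the induced libraries and at 1.60 and 1.73 times in the uninduced libraries.

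The glycine genes differed from each other. GRS1 (YBR121C, chromosome II, 481364 to 483367) encodes the main glycine enzyme of cytosol and mitochondria. It had 309 and 293 CPM in the induced libraries, against 556 and 556 CPM in the uninduced libraries (-0.88 ± 0.05, adjusted p = 5.12e-09). GRS2 (YPR081C, chromosome XVI, 702114 to 703970) is its paralog from the whole-genome duplication, described in the deposited table as induced by heat, oxidative, pH or ethanol stress. GRS2 had 86.1 and 90.4 CPM induced and 78.2 and 82.4 CPM uninduced. The groups of GRS2 did not overlap, but its difference did not pass (0.13 ± 0.06, adjusted p = 0.0676). With uninduced library 2 left out it was called higher (0.17, adjusted p = 0.0493), as it was by edgeR on recovered reads (0.15, adjusted p = 0.0413), with the replicate block (adjusted p = 0.0454) and under scaling to total reads (0.26, adjusted p = 0.00246). Per kilobase, GRS2 made up 23.1% and 24.97% of the summed level of the pair in the induced libraries and 13.2% and 13.8% in the uninduced libraries. The coding sequences are 66.4% identical over 1833 aligned bases, and their longest identical run is 17 bases.

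ARC1 and its partners fell by different amounts. Arc1 binds the methionine enzyme Mes1 and the glutamate enzyme Gus1 and delivers tRNA to both. ARC1 (YGL105W, chromosome VII, 307437 to 308567) had 549 and 518 CPM induced and 826 and 835 CPM uninduced (-0.64 ± 0.05, adjusted p = 1.65e-07). GUS1 (YGL245W, chromosome VII, 39023 to 41149) had 425 and 418 CPM induced and 505 and 527 CPM uninduced, a smaller change (-0.29 ± 0.05, adjusted p = 0.000156). Per kilobase, MES1 stood at 0.239 and 0.251 times GUS1 in the induced libraries and at 0.381 and 0.408 times in the uninduced libraries. The change of this ratio, -0.69 on the log2 scale, was not tested; the smallest p of an exact permutation test of 2 against 2 libraries is 0.333. The call of GUS1 was lost after quantile normalization (-0.10, adjusted p = 0.0565) and against a 1.2-fold change (adjusted p = 0.515). The authors' deposited table gave GUS1 an adjusted p of 0.276.

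A similar split was seen within phenylalanyl-tRNA synthetase, whose cytosolic form is a tetramer of beta (FRS1) and alpha (FRS2) subunits. FRS1 (YLR060W, chromosome XII, 260979 to 262766) had 303 and 303 CPM induced and 459 and 468 CPM uninduced (-0.61 ± 0.05, adjusted p = 1.11e-07). FRS2 (YFL022C, chromosome VI, 93499 to 95010) had 312 and 321 CPM induced and 353 and 385 CPM uninduced (-0.22 ± 0.05, adjusted p = 0.00268). Per kilobase, the level of FRS1 was 0.823 and 0.797 times that of FRS2 in the induced libraries and 1.10 and 1.03 times in the uninduced libraries. FRS2 was not called under scaling to total reads (-0.09, adjusted p = 0.125) or quantile normalization (-0.08, adjusted p = 0.161), against a 1.2-fold change (adjusted p = 1), nor in the authors' deposited table (adjusted p = 0.373).

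The 4 members listed here as making both a cytosolic and a mitochondrial enzyme, ALA1, GRS1, HTS1 and VAS1, all fell, with a median of -0.67. Gene totals cannot tell the messages of the 2 forms apart. ALA1 (alanine; YOR335C, chromosome XV, 946233 to 949109) had 178 and 179.7 CPM induced and 288 and 293 CPM uninduced (-0.70 ± 0.05, adjusted p = 3.71e-08). VAS1 (valine; YGR094W, chromosome VII, 672186 to 675500) had 439 and 427 CPM induced and 664 and 688 CPM uninduced (-0.64 ± 0.05, adjusted p = 1.06e-07). HTS1 (histidine; YPR033C, chromosome XVI, 637379 to 639019) changed least of the 4, with 169 and 181 CPM induced and 204 and 209 CPM uninduced (-0.24 ± 0.05, adjusted p = 0.00144). HTS1 lost its call under scaling to total reads (-0.11, adjusted p = 0.0798) and against a 1.2-fold change (adjusted p = 0.995). In the authors' deposited table HTS1 had an adjusted p of 0.425.

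**Figure D3:**
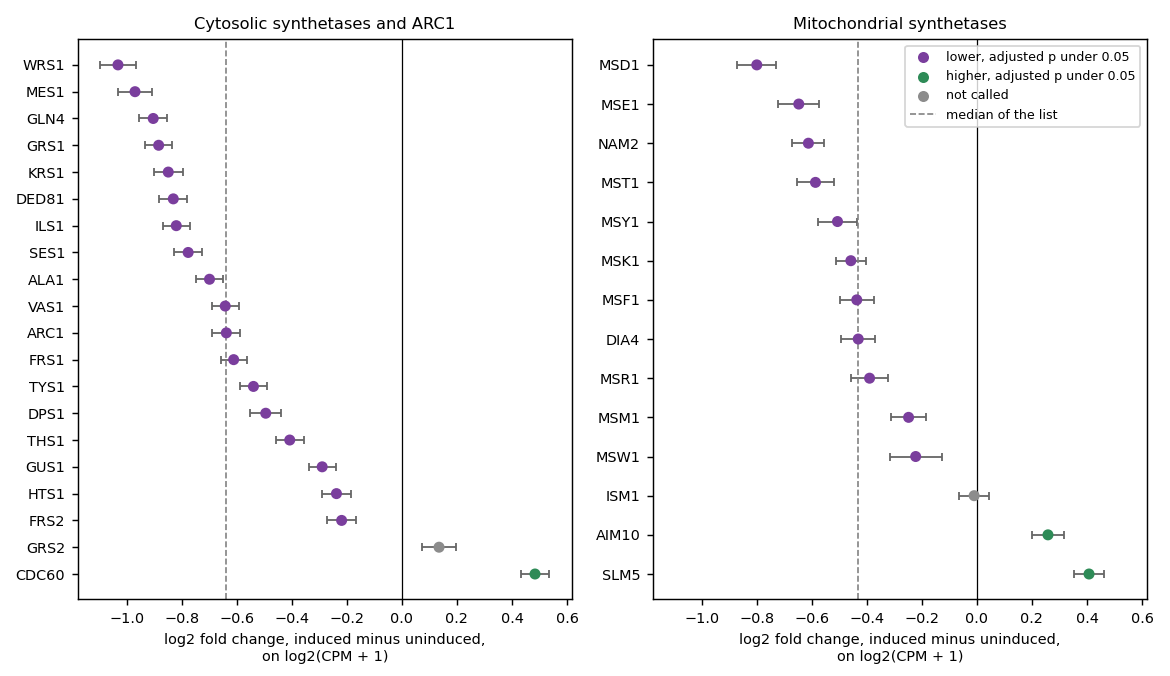
Log2 fold change (induced minus uninduced, on log2(CPM + 1)) of each gene with its SE from the limma fit, cytosolic at left and mitochondrial at right; colour marks the call and the dashed line the median of the set. The cytosolic values run from -1.03 (WRS1) to 0.48 (CDC60) and the mitochondrial values from -0.80 (MSD1) to 0.41 (SLM5).

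Mitochondrial synthetase genes were lower in level than most cytosolic ones. Per kilobase of coding sequence they lay between 21.8 and 92.9 CPM per kb in the induced libraries and between 34.5 and 128 CPM per kb in the uninduced libraries. The cytosolic genes lay between 46.4 and 472 CPM per kb induced and between 43.2 and 734 CPM per kb uninduced, with ARC1 highest in each group. The aspartate gene MSD1 (YPL104W, chromosome XVI, 355700 to 357676) fell most of the mitochondrial set. It had 53.3 and 59.4 CPM induced and 96.1 and 101 CPM uninduced (-0.80 ± 0.07, adjusted p = 3.82e-07). MSE1 (glutamate; YOL033W, chromosome XV, 263475 to 265085), with 34.8 and 35.5 CPM induced and 56.6 and 54.6 CPM uninduced, changed by -0.65 ± 0.07 (adjusted p = 4.55e-06). In both genes the groups were well apart.

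Other mitochondrial falls were those of MST1 (threonine, -0.59), MSY1 (tyrosine, -0.51), MSK1 (lysine, -0.46), MSF1 (phenylalanine, -0.44), DIA4 (a probable serine enzyme, -0.43) and MSR1 (arginine, -0.39). MSK1, whose product also takes part in the import of a cytosolic lysine tRNA into mitochondria, was the highest of the set in CPM, at 161 ± 7.67 induced and 221 ± 7.63 uninduced. MSM1 (methionine) changed by -0.25 ± 0.06 (adjusted p = 0.00402), a call lost under scaling to total reads (adjusted p = 0.114) and against a 1.2-fold change (adjusted p = 0.903). MSR1 also lost its call against a 1.2-fold change (adjusted p = 0.0933). MSW1 (tryptophan) had 35.5 and 35.5 CPM induced and 37.8 and 45.8 CPM uninduced, and passed only just (-0.22 ± 0.09, adjusted p = 0.0499). MSW1 lost its call in 11 of 15 alternatives, among them the fits without uninduced library 2 (-0.09, adjusted p = 0.46), without induced library 1 (adjusted p = 0.143) and without induced library 2 (adjusted p = 0.144). Over the 15 alternatives the adjusted p of MSW1 lay between 0.00185 and 0.98.

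The mitochondrial asparagine and proline genes rose. SLM5 (asparagine; YCR024C, chromosome III, 160744 to 162222) had 139 and 134 CPM induced and 104 and 101 CPM uninduced (0.41 ± 0.05, adjusted p = 2.18e-05). AIM10 (YER087W, chromosome V, 330576 to 332306), a gene similar to those of prolyl-tRNA synthetases, had 105 and 103 CPM induced and 87.4 and 86.6 CPM uninduced (0.26 ± 0.06, adjusted p = 0.00122). Their groups did not overlap. SLM5 also passed against a 1.2-fold change (adjusted p = 0.0261), whereas AIM10 did not (adjusted p = 0.836). In the authors' deposited table neither passed, with adjusted p of 0.0654 for SLM5 and 0.233 for AIM10. ISM1 (isoleucine; YPL040C, chromosome XVI, 475993 to 479001) had 115 and 118 CPM induced and 115 and 120.3 CPM uninduced, so its groups overlapped (-0.01 ± 0.06, adjusted p = 0.878).

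Where a cytosolic and a mitochondrial gene serve the same amino acid, their ratio per kilobase was compared in each library. There were 13 such pairs, made of 13 cytosolic and 12 mitochondrial genes, since FRS1 and FRS2 share MSF1. The ratio was lower in induced libraries in 8 pairs and higher in 5, with a median change of -0.17 on the log2 scale, and in 12 pairs the groups did not overlap. Such separation was common, since 43.1% of all single genes tested separated downward and 42.9% upward. The strongest fall was in asparagine, where DED81 stood at 2.81 and 2.996 times SLM5 in the induced libraries and at 6.61 and 7.14 times in the uninduced libraries (a change of -1.24). Isoleucine (ILS1 over ISM1) and tryptophan (WRS1 over MSW1) each changed by -0.81, and methionine (MES1 over MSM1) by -0.72. For methionine the ratio was 1.19 and 1.27 induced and 1.86 and 2.22 uninduced. Leucine went the other way, with a change of 1.10 from the rise of CDC60 and the fall of NAM2. Glutamate (GUS1 over MSE1, 0.37), aspartate (DPS1 over MSD1, 0.32), phenylalanine by FRS2 (0.22) and threonine (THS1 over MST1, 0.19) also moved upward, and in each of these the mitochondrial gene fell by more. Tyrosine (TYS1 over MSY1) was the pair whose groups overlapped, at 6.35 and 5.61 induced and 6.11 and 6.05 uninduced. No test was run on these ratios, so they are given as descriptions.

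**Figure D4:**
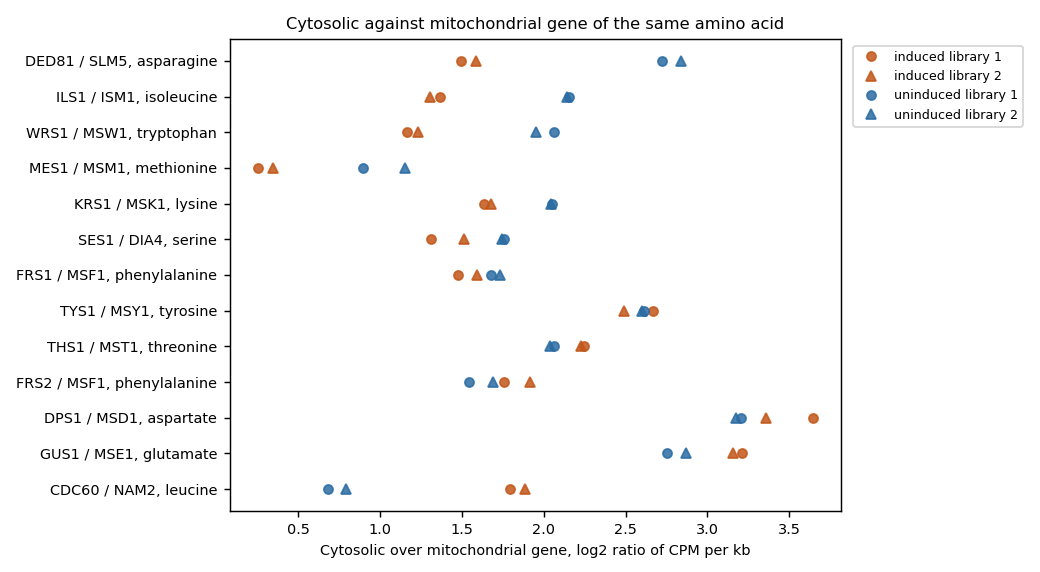
Log2 ratio of CPM per kb, cytosolic over mitochondrial gene, in each library for the 13 pairs of the same amino acid, ordered from the strongest fall in induced libraries (DED81 over SLM5, -1.24) to the strongest rise (CDC60 over NAM2, 1.10). Circles are library 1 and triangles library 2 of each group.

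Synthetases fall into 2 structural classes that differ in the fold of the catalytic domain. Among 8 cytosolic class I genes, 7 fell and 1 rose (median -0.73), and among 11 cytosolic class II genes, 10 fell and 0 rose (median -0.61). In the mitochondrial set, 6 of 7 class I genes fell and 0 rose (median -0.39), and 5 of 7 class II genes fell and 2 rose (median -0.44). Beside these counts, 37.0% of all genes tested were called lower and 35.6% higher. The grouping by class was added after values were seen, and the classes were not tested against each other. Across the 34 genes, the log2 fold change had a Pearson's r of -0.37 and a Spearman's rho of -0.39 with the uninduced level on log2(CPM + 1); these are descriptions across genes of the same libraries, and the uninduced values enter both measures. Within the cytosolic set r was -0.32 and rho -0.10, and within the mitochondrial set r was -0.02 and rho 0.01. None of the 34 coding sequences holds an intron, and none overlaps another gene of the RefSeq annotation. The deposited table names a dubious reading frame overlapping ILS1, AIM10, MES1, GLN4 and ALA1. YER087C-A, over AIM10, was the highest of these frames in the induced libraries, with 2.92 and 2.12 CPM induced and 0.725 and 1.00 CPM uninduced. It was itself called higher in the limma fit (0.91, adjusted p = 0.00281), and it overlaps AIM10 almost completely. YBL077W, over ILS1, was the highest in the uninduced libraries, with 1.30 and 1.28 CPM induced and 1.71 and 1.10 CPM uninduced.

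The other cytosolic synthetase genes, which the table lists by systematic name, also fell. YDR341C (arginine) had 176 and 176 CPM induced and 329.9 and 362 CPM uninduced (-0.97 ± 0.05). YHR020W (proline) had 155 and 157 CPM induced and 272 and 279.8 CPM uninduced (-0.82 ± 0.05), and YNL247W (cysteine) 181 and 179 CPM induced and 280.5 and 289 CPM uninduced (-0.66 ± 0.05). All 3 had both the RRPE core and the Gcn4 motif upstream, and 2 of the 3 had the PAC core. Per kilobase, YHR020W stood at 1.23 and 1.27 times AIM10 in the induced libraries and at 2.60 and 2.71 times in the uninduced libraries.

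Factors that carry charged tRNA to the ribosome or move it along fell too. In the cytosol 6 of 7 fell and 1 rose, beside 37.0% lower and 35.6% higher of all genes tested, and their median was -0.76. Both TEF1 (-0.76) and TEF2 (-0.75) are among the 6. They have the same coding length (1377 bases), and whether reads separate them was not examined. TEF4, a subunit of the exchange factor of elongation factor eEF1A, had 271 and 264 CPM induced and 709 and 711 CPM uninduced (-1.40 ± 0.05). The elongation factor gene YEF3 changed by -1.20 and the exchange factor gene EFB1 by -1.10. HEF3, a paralog of YEF3, was the gene that rose, with 60.4 and 56.7 CPM induced and 32.4 and 32.2 CPM uninduced (0.84 ± 0.08). The mitochondrial elongation factor genes all fell, MEF1 by 1.09, TUF1 by 1.08 and MEF2 by 0.69 on the log2 scale. In yeast mitochondria, glutaminyl-tRNA is made by amidation of a tRNA charged with glutamate. Of the amidotransferase genes, GTF1 (-0.46) and PET112 (-0.30) fell and HER2 did not pass (-0.13, adjusted p = 0.217). FMT1, which formylates the initiator, fell (-0.46), with 8.36 and 8.03 CPM induced and 11.6 and 11.6 CPM uninduced. None of these genes passed in the authors' deposited table (adjusted p of 0.0565 for GTF1, 0.137 for PET112 and 0.124 for FMT1).

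Genes that mature or modify tRNA were also measured. Of 20 maturation and export genes, 8 fell and 7 rose, close to the 37.0% lower and 35.6% higher of all genes, and their median was -0.12. RPM2, a subunit of mitochondrial RNase P, had 167 and 168 CPM induced and 285 and 275 CPM uninduced (-0.73 ± 0.05). The genes of nuclear RNase P, the enzyme that trims the 5′ end of tRNA, were divided in the limma fit. RPP1 (-0.68), POP3 (-0.67), POP8 (-0.41) and POP5 (-0.31) fell, and RPR2 (0.65), POP6 (0.32), POP7 (0.29), POP1 (0.29) and POP4 (0.26) rose. In the authors' deposited table only RPP1 (lower, adjusted p = 0.00233) and RPR2 (higher, adjusted p = 0.00906) of these genes passed. The others had adjusted p between 0.097 (POP3) and 0.389 (POP5) there, so their part in the division is less certain. Of 58 modification genes tested, 35 fell and 4 rose, and their median was -0.30. TRM1, a tRNA guanine methyltransferase, had 25.7 and 24.7 CPM induced and 79.9 and 88.3 CPM uninduced (-1.70 ± 0.08), followed by TRM11 (-1.29) and the Elongator gene ELP3 (-1.19). The PAC core stood upstream of 34 of the 58 modification genes (58.6%) and the RRPE core upstream of 20 (34.5%), against 3 and 16 of the 20 cytosolic genes.

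**Figure D5:**
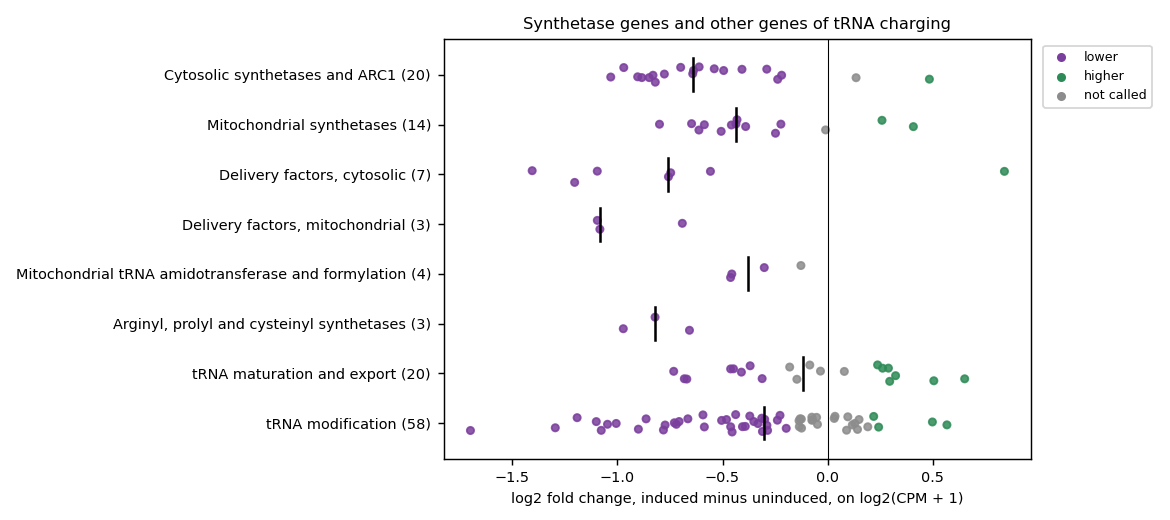
Log2 fold change (induced minus uninduced, on log2(CPM + 1)) of each gene by list, with the number of genes tested in brackets; black ticks are list medians and colour marks the call. The cytosolic synthetase genes centre on -0.64, the mitochondrial ones on -0.43 and the tRNA maturation genes on -0.12; vertical scatter within a row carries no value.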

How the data were processed

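RNA was measured in 4 libraries, 2 induced and 2 uninduced. Hot acid phenol extraction, a stranded mRNA kit and HiSeq sequencing were used, per the labels' protocols. The authors deposited 1 table of normalized CPM, a signal scaled to library size per the file headers, with their log2 fold change, p-value and FDR-adjusted p-value. The submitters' processing notes name TopHat2 2.0.13, HTSeq, edgeR, sacCer3 and R64 with no roles, and the sources used here do not give the strand setting or filters. The values in every column were whole multiples of 1 step within 0.001, so reads were recovered for 100% of values; the step of uninduced library 2, 0.1002 CPM, lies near a round decimal, which makes the evidence weaker there.

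The main test was limma 3.58.1 (R 4.3.3) on log2(CPM + 1) with an intensity trend, two-sided, adjusted by Benjamini-Hochberg over 6037 genes with a mean of at least 1 CPM, which all 34 members passed. SE are from this fit, and fold changes on this scale understate the change of low genes. The planned unit was CPM; the test was unchanged. Alternatives used edgeR 4.0.16 and DESeq2 1.42.0 on recovered reads, and limma with other settings. The main limma fit, edgeR and DESeq2 were tested on simulated data, and the other settings were not. The R64 annotation gave coordinates, coding lengths and the windows of 300 bases, with genes matched by systematic name. The 34 members, the lists and the motifs were chosen with earlier results of these data known. Values in every library are given for ARC1 and its partners, the glycine genes, the PheRS subunits, genes of both compartments, the 3 strongest falls and rises of each set and members that did not pass or went against their set. From other lists the 3 strongest called genes are named, or all in lists of 5 or fewer; HEF3, YER087C-A, YBL077W, the other RNase P genes and the class grouping were added after values were seen. TRM140 was matched to no row.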

Additional observations from a re-analysis of the deposited data

How the results depend on the processing

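Of the 34 genes, 29 were called lower and 3 higher, and only ISM1, which was not called, changed sign in any of the 15 alternatives run. Its log2 fold change was 0.0021 with edgeR and 0.115 with total-count scaling, and ran from -0.0422 to 0.0221 with a library left out. The cytosolic count of lower genes was 15 to 18 over the alternatives and the mitochondrial one 8 to 11, so both stayed within 1.5 times their main values. The cytosolic count of higher genes was 2, with GRS2 added, under edgeR, total-count scaling and the replicate block, and 1 to 2 with a library left out. Against a 1.2-fold change, 2685 genes were called (1399 lower, 1286 higher) and 1 mitochondrial gene was higher; this alternative asks for a larger change by construction. The cause of the other moves was not tested. Quantile normalization moved the cytosolic median to -0.45 and the mitochondrial one to -0.42. Without ARC1 the cytosolic count was 17 lower. Depth limits the lowest genes, the smallest count of a member in a library being 429 reads, and p-values rest on 2 libraries per group.

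Libraries share replicate numbers, but the labels give the numbers no shared day or batch, and same-numbered libraries did not deviate together (r = -0.01 over 5017 genes). With the replicate block 4512 genes were called, against 4387 without it; of the 34 genes, GRS2 alone changed its call (adjusted p = 0.0454).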
